A study of Mus musculus with 10 samples.

Results

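Messenger RNA of pachytene spermatocytes was compared with that of spermatogonia, the ends of the series of germ cell fractions in this study of C57BL/6 male mice. The samples were chosen by their titles: the 2 samples of pachytene spermatocytes, Percoll fraction 8 of testes taken at day 15, and the 2 samples of spermatogonia, fraction 2 at day 8. They were 4 of the 10 samples in the series, which also holds leptotene/zygotene spermatocytes (fraction 5, day 12), whole testis and a mixture of 11 somatic tissues (both day 15). The labels name no genetic change or drug for any group. All 3 germ cell fractions came from testes digested with hyaluronidase, trypsin and collagenase, passed through a 70 µm screen and layered on a discontinuous Percoll gradient, so each fraction is enriched for a stage by density and age and is not a pure cell population. Each sample numbered 1 was hybridised to one oligonucleotide array design and each sample numbered 2 to its companion with other probe sets. Every gene was therefore read from 1 array per fraction, so that the small number of arrays limits precision. The study's title and description name the segregation of chromosomes in meiosis I as its subject. The comparison asks what separates a cell in mid-meiosis from the mitotic cell it came from.

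Spermatogonia divide by mitosis and supply the cells that enter meiosis under retinoic acid. In pachytene, homologous chromosomes are joined along their length by the synaptonemal complex, recombination is completed, and the unpaired X and Y chromosomes are gathered into the sex body, where most of their genes are silenced. Pachytene cells also begin to store transcripts for the flagellum, the acrosome and the energy metabolism of sperm that will be built only after the meiotic divisions.

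Of 18194 genes with a probe set of their own, 11909 were read on the first design and 6285 on the second. A gene counted as measured when its scaled signal exceeded the floor in pachytene or in spermatogonia; 13705 did. The floor, the signal below which a probe set was not told from background, was 87.3 on the first design and 47.0 on the second. Signals below it were set to it, so a difference against the floor is a bound and is written as "at least". A gene at the floor in spermatogonia counted as measured only through pachytene and could not fall, and the reverse held for pachytene. Signals are in the arbitrary units of the scanner software, and signals of different genes are not compared with each other. The 100 probe sets placed on both designs gave an error of 0.235 for a log2 difference, with a 95% limit of 0.461. None of them had a signal below 135 in spermatogonia, so the error was hardly measured near the floor and may be larger for dim genes. The error was 0.518 with quantile normalization and 0.361 with the values as deposited, so counts beyond the limit hold for the scaling used. Genes are said to have risen or fallen only past 4-fold, which is 2 on the log2 scale; genes beyond the error limit are called higher or lower, as were 29.8% and 42.6% of the measured genes. In bulk RNA, fewer cells of a type and less RNA per cell cannot be told apart.

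The fractions differed at least 4-fold at 22.1% of the measured genes, with the steepest changes upward. Of the 13705 genes, 1376 rose at least 4-fold in pachytene (10.0%) and 1655 fell at least 4-fold (12.1%). The rises were larger: 410 genes rose and 14 fell at least 16-fold, and 84 rose and 0 fell at least 64-fold. Spermatogonia were at the floor for 505 of the genes that rose, and pachytene was at the floor for 357 of those that fell. Over the 10253 genes detected in each of the fractions the median was -0.23. It depended on the scaling: it was shifted by 0.18 with quantile normalization, by 0.28 with median scaling and by 0.35 with scaling by the shared probe sets. The calls were then 1403 higher and 1200 lower, 1739 and 1093, and 1770 and 994, so genes that rose made up 53.9%, 61.4% and 64% of the calls in place of 45.4%. They made up 54.1% with the floor added to each signal (1138 and 964), 52.3% with the mean over probe sets (1166 and 1064) and 51.7% with the floor at the 60th percentile (1191 and 1112).

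**Figure D1:**
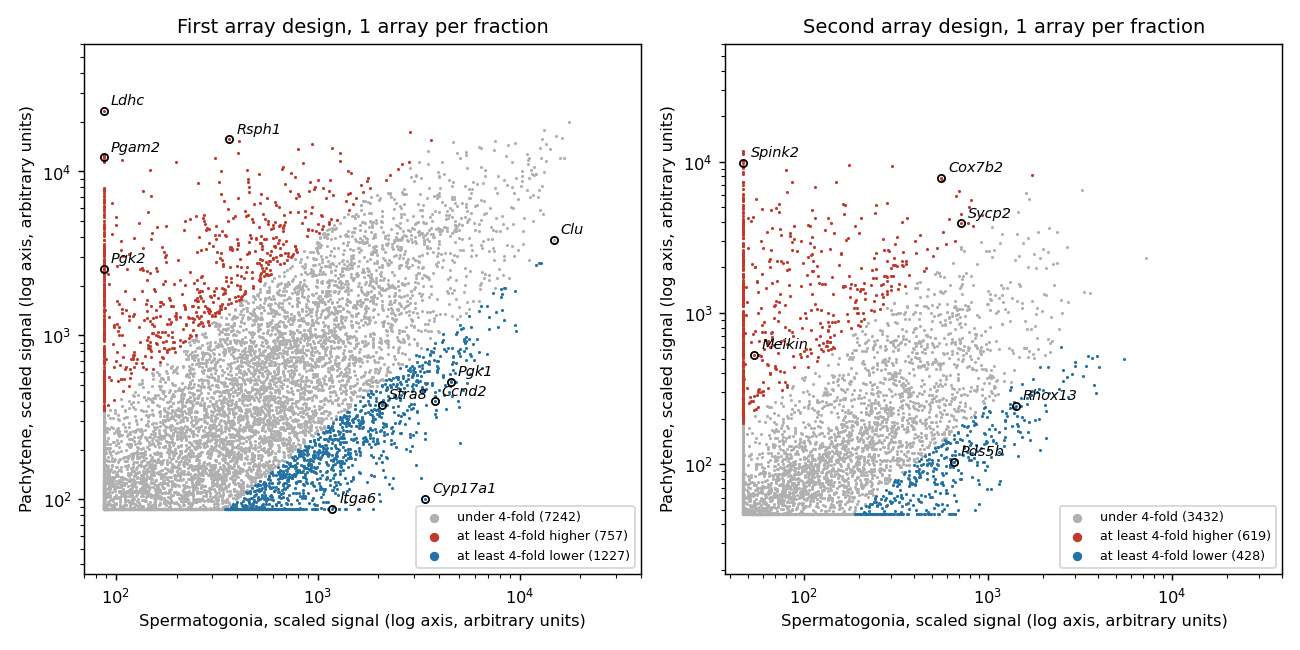
Scaled signal of each measured gene in spermatogonia (horizontal, log axis) and pachytene (vertical, log axis), arbitrary units, with 1 array per fraction on each design and signals below the floor drawn at the floor. Red points are genes at least 4-fold higher in pachytene, blue points genes at least 4-fold lower; the red column at the left edge holds genes at the floor in spermatogonia, led by Ldhc at 23494 in pachytene.

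The markers given with the comparison followed the labels. Ldhc, the lactate dehydrogenase of meiotic and later germ cells, had a signal of 58.8 in spermatogonia, below the floor, 1855 in leptotene/zygotene and 23494 in pachytene, at least 269-fold higher. Rsph1, a radial spoke protein of the flagellum, went from 364 to 2244 and 15701, a 43.1-fold rise. Both were therefore already above spermatogonia in the intermediate fraction. Ccnd2, the D-type cyclin of dividing spermatogonia, fell from 3789 through 1936 to 398, or 9.53-fold. Itga6, an integrin of spermatogonia at the basement membrane, fell from 1176 through 679 to below the floor, at least 13.5-fold. In all 4 markers the leptotene/zygotene signal lay between those of the other fractions.

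Of the genes detected in both fractions, the largest rise was that of Ropn1l, a protein of the flagellar fibrous sheath and radial spokes, from 87.9 to 11402 (130-fold). Dnaaf1, an assembly factor of axonemal dynein, went from 108 to 11834 (110-fold) and Morn5 from 80.5 to 8757 (109-fold). The others of the top 10 were Ttll8, a tubulin glycylase (log2 6.67), Bbof1, a basal body protein (6.41), Shcbp1l, a protein of the meiotic spindle (6.41), Zpbp2, a zona pellucida binding protein of the acrosome (6.37), Mdh1b (6.29), the receptor gene Gpr160 (6.28) and the dynein light chain gene Dynlrb2 (6.15). Against the floor the brightest were Ldhc, the fatty acid binding protein gene Fabp9 (12651 in pachytene, at least 145-fold), Fbp1, an enzyme of gluconeogenesis (12415, at least 142-fold), Pgam2, the muscle phosphoglycerate mutase (12219, at least 140-fold), Catsperz, part of the CatSper channel of sperm (12039, at least 138-fold), and Spata4 (11658, at least 134-fold). All 16 had a signal above 1000 in whole testis at day 15. In the somatic mixture, Fbp1 had a signal of 8974 and Pgam2 of 4694, while Fabp9 and Spata4 were below the floor.

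The largest falls included genes known as markers of somatic cells of the testis. Cyp17a1 and Hsd3b1, steroid synthesis enzymes of Leydig cells, went from 3413 to 101 and from 3242 to 135, falls of 33.9-fold and 24.1-fold. Myh11, the smooth muscle myosin of peritubular cells, fell 18.1-fold and Inhbb, an inhibin subunit of Sertoli cells, 17.7-fold. Plagl1, an imprinted zinc finger gene, went from 5065 to 219 (23.1-fold, but a log2 difference of -0.05 by its probe set on the second design) and Gadd45g, a stress-response gene, from 3078 to 162 (18.9-fold). Hsd17b10, a mitochondrial dehydrogenase gene on the X chromosome, went from 2327 to 116 (log2 -4.32). Pdlim4 (-4.39), Prss35 (-4.23) and Abtb2 (-4.08) completed the 10. Genes that reached the floor in pachytene included the matricellular gene Ccn4 (at least 21.7-fold lower), Lsr (18.2-fold), the troponin gene Tnnt2 (18.2-fold, but a log2 difference of 0.30 by its probe set on the second design and with plain probe sets), Marveld1 (15.8-fold), the mesenchymal cadherin gene Cdh11 (15.7-fold) and Nop56, a core protein of small nucleolar ribonucleoproteins (14.6-fold), each of these folds being a lower bound.

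Transcription factors known from spermatocytes changed in both directions. Of 37 measured members of that list, 12 rose and 2 fell, with a median of 0.21 against -0.22 over all measured genes. The shares of all measured genes were 10.0% that rose and 12.1% that fell. Gtf2a1l, the germ cell form of a TFIIA subunit, went from 56.8 through 124 to 5502 (at least 63.0-fold), Hsf5 from 111 to 4762 (log2 5.43) and Zfp541, a chromatin factor of spermatocytes, from 65.3 to 2278 (5.12). Tbpl1, the TBP-like factor, rose by 3.97, and Tbp itself by 2.70. Brdt, the testis bromodomain protein, rose at least 16.2-fold, and Tcfl5 10.6-fold. On the second design other probe sets gave Tbpl1 0.63 and Brdt 0.60, short of 4-fold. The RFX factor genes Rfx2 and Rfx4 rose at least 10.8-fold and 11.2-fold, with 1.06 on the log2 scale for Rfx2 on the second design. Mybl1, which encodes A-MYB, a transcription factor of pachytene genes, went from 106 through 143 to 438 and rose by 2.05, just past the threshold. Sox30 and Ovol2 also rose. Against them stood Bhlhe40, which fell 12.0-fold, and the X-linked Taf7l, which went from 1083 through 2735 to 190. Crem, the activator of spermatid genes, gave opposite values on the designs: it was lower by 1.10 on the first, and another probe set on the second gave a difference of 5.84. Rfx1 was lower by 1.72. Myb and Fhl5 were at the floor in both fractions.

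Binding motifs of these factors were counted in the windows from 250 bases before to 50 after the annotated starts, taken from RefSeq (GRCm38.p6) and searched on both strands. The MYBL1 motif, GGCAGTT, stood in 6.68% of 1423 windows of genes that rose, 3.03% of 1749 windows of genes that fell, 3.83% of 13994 windows of all measured genes and 4.12% of all 32851 windows. Among genes that rose at least 16-fold it stood in 11.3% of 399 windows. The RFX motif, GTTGCCAT, gave 2.95%, 0.572%, 1.30% and 1.35%, and 5.51% in the 16-fold set. The CREM motif, TGACGTCA, with 3.44%, 2.74%, 2.84% and 1.79%, and the E2F motif, GGCGGGAA, with 3.23%, 3.83%, 3.71% and 2.19%, differed less between genes that rose and fell, and stood in 2.26% and 4.51% of the windows of the 16-fold set. None of the motifs contains another. Windows of 1 gene can overlap, and no test was made of these shares. The windows of the 16 leading genes that hold the MYBL1, RFX or CREM motif are printed as 30 bases each. They are on the strand of the gene, with the motif in capitals. The 16 are the 10 largest rises above the floor in both fractions and the 6 brightest against the floor. Some genes outside them, such as Hspb9 and Eid3, had larger differences, as lower bounds, than the genes printed. The MYBL1 motif begins at base 28 of the transcript in Fbp1 (chr13:62888237-62888266, minus strand), at base 12 in Pgam2 (chr11:5803767-5803796, minus strand) and at base 41 in Gpr160 (chr3:30855970-30855999, plus strand), and the RFX motif at position -6 in Spata4 (chr8:54600764-54600793, plus strand).
Fbp1: gcgggcagaatGGCAGTTggtagaggaagg
Pgam2: gaatgctgattGGCAGTTagggctggggtg
Gpr160: acgcgcggacctgccgctcaGGCAGTTacg
Spata4: ccagctgatctGTTGCCATagaaacccata
A match in such a window is a description of the sequence and does not show binding. Of the 16 leading genes, 14 matched a window, and in 10 of them none of these 3 motifs was found.

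Most pachytene markers rose. Of 27 measured members of this list, 22 rose and 0 fell, with a median of 5.43, while 10.0% of all measured genes rose. In spermatogonia 18 of 24 members read on the first design and 1 of 3 on the second were at the floor and could not fall. The list holds Ldhc and Rsph1, the markers given with the comparison, and was chosen with earlier results of these data known. The count is therefore a description and no independent support of the labels. Spink2, an acrosomal protease inhibitor, went from below the floor through 145 to 9834 (at least 209-fold), and Pdcl2 from below the floor through 444 to 7708 (at least 88.3-fold). Clgn, the chaperone calmegin, rose at least 86.9-fold, Tcp11 at least 70.8-fold and Crisp2, a cysteine-rich sperm protein, at least 69.5-fold. Piwil1, the pachytene piRNA-binding Argonaute, rose at least 40.4-fold, and Hspa2, the chaperone of the synaptonemal complex, went from 534 through 901 to 5515. Members that did not rise were Ddx4, the germ cell helicase (1.55), Ropn1 (0.74), Slc25a31 (0.57) and the testis histone H1f6 (0.20), and Nxf3, an X-linked mRNA export factor, was lower by 1.38. Acrv1 and Hspa1l were at the floor in both fractions.

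Of the markers of later spermatids a minority rose. Of 24 on the arrays, 11 were at the floor in both fractions, among them Tnp1, Tnp2, Prm2 and Prm3, which encode the proteins that replace histones in sperm, and Akap4, Smcp and Spem1. Prm1 was at 91.1 in pachytene, at the edge of the floor. Of the 13 measured members 11 were higher beyond the limit and 4 rose: Actl7b, an actin-like protein (at least 36.9-fold), Tekt4 and Tekt5, tektins of the flagellum (at least 33.8-fold and 5.74-fold), and Tssk1, a spermatid kinase (at least 6.33-fold). None fell.

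The flagellar axoneme was the list with the most genes that rose. Of 78 measured members 57 rose and 0 fell, with a median of 3.81, and 71 were higher beyond the error limit. In spermatogonia 13 of 38 members read on the first design and 20 of 40 on the second were at the floor and could not fall. Genes of several parts of the axoneme rose. Among the dynein genes, Dnah8, an outer arm heavy chain, went from 198 through 472 to 11422 (log2 5.85), Dnah2 rose by 4.58, Dnali1 by 5.68, and the intermediate chain genes Dnaic1 and Dnaic2 at least 27.0-fold and by at least 4.17. In the central apparatus, Spag6l rose at least 67.2-fold, Spag16 at least 32.9-fold, Spag17 at least 17.0-fold and Hydin by 3.31. Radial spoke genes Rsph6a (at least 28.4-fold) and Rsph9 (4.49) rose beside Rsph1. The ruler proteins of the axonemal repeat, Ccdc39 and Ccdc40, rose at least 53.2-fold and from 69.3 to 1110, and the tektins Tekt1, Tekt2 and Tekt3 at least 43.6-fold, by 4.17 and by 5.75. Transport genes of the growing axoneme were graded: Ift172 (3.83), Ift22 (3.68), Ift122 (3.48) and Ift140 (3.22) rose, while Ift88 (2.83-fold) and Ift27 (2.82-fold), Ift20 (0.94) and Ift81 (0.47) were higher without reaching 4-fold. Dnal1 lay within the error limit (-0.10), and Iqca (-0.71, or 0.05 as the mean of its probe sets) and Catsper3 (-0.85, against the floor in pachytene) were lower. Dnah5, Dnah11, Dnah17, Rsph4a and Morn3 were at the floor in both fractions. On the first design alone 25 of 38 members rose, and on the second 36 of 50. Of all genes measured on each design alone, 8.21% and 10.5% rose and 13.3% and 10.3% fell, or 21.5% and 20.8% in either direction.

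The acrosome list followed closely. Of 34 measured members 22 rose and 0 fell, with a median of 3.98. The shares of all measured genes were 10.0% and 12.1%. In spermatogonia 14 of 20 members read on the first design and 7 of 14 on the second were at the floor and could not fall. Besides Spink2 the genes that rose were membrane and matrix proteins of the acrosome. Lypd4 went from below the floor through 201 to 5758 (at least 122-fold) and Dkkl1 through 69.4 to 7928 (at least 90.8-fold, the leptotene/zygotene value also being below the floor). The fertilin and cyritestin family of membrane proteins rose with them, Adam32 at least 74.9-fold, Adam2 57.1-fold, Adam5 41.4-fold and Adam3 27.1-fold as lower bounds. Acrbp, which binds proacrosin, rose at least 40.5-fold, and Acr, the proacrosin gene itself, at least 23.4-fold. Ly6k, a germ cell surface protein, differed from these in being expressed before: it went from 807 through 3643 to 5565 (6.90-fold). Izumo1, the sperm protein that binds the egg, was at 42.5 and 48.6, beside a floor of 47.0, and 17 of the 51 genes on the arrays, including Spam1, Zp3r and Eqtn, were at the floor in both fractions. Ace (-0.36), Spaca4 (-0.33) and Pdia4 (-0.06, against the floor in pachytene) went against the list within the limit.

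Genes of the synaptonemal complex and meiotic cohesin rose in part. Of 18 measured members 5 rose and 0 fell (median 0.61), and 9 were higher and 4 lower beyond the limit. Over all measured genes the shares were 10.0%, 12.1%, 29.8% and 42.6%. Syce1, a central element protein, went from 695 through 1440 to 6378 (9.18-fold), and Stag3, the meiotic cohesin subunit, from 640 through 1420 to 3841 (6.00-fold). Sycp2, a lateral element protein, went from 713 through 1919 to 3925 (5.51-fold). Terb1, which ties telomeres to the nuclear envelope, and Syce3 rose by 2.25 and 2.17. Some other members had their highest signal in the intermediate fraction: Sycp1, the transverse filament, was at 263, 949 and 487, and Tex12 at 574, 1340 and 659. Sycp3, a lateral element protein, was at 1216, 2828 and 2501, with the last 2 within the error limit of each other. Syce2 was at 2574, 5130 and 1723 and lower in pachytene by 0.58. Rec8, the meiotic kleisin, was at 176, 269 and below the floor, at least 2.02-fold lower, and Trip13, the ATPase that removes HORMA domain proteins, was lower by 1.21. With quantile normalization 3 members rose in place of 5.

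Recombination genes differed in direction. Of 31 measured members 6 rose and 2 fell (median 0.58), while 16 were higher and 10 lower beyond the limit. Over all measured genes the shares were 10.0%, 12.1%, 29.8% and 42.6%. Psmc3ip, the HOP2 cofactor of strand exchange, went from 291 through 876 to 4472 (15.4-fold), Spo11, which makes the programmed DNA breaks, from 107 through 224 to 1362 (12.7-fold) and Hsf2bp, which binds BRCA2, from 182 through 343 to 1544 (8.51-fold). Mdc1 and Atr, which spread the damage signal over unpaired chromosomes, rose by 2.25 and 2.23, and 4930432K21Rik by 2.21, but Atr had a difference of 0.12 on the second design. Mlh3, of the crossover-forming nuclease, was higher by 1.63 and Mus81 2.82-fold. In the other direction, Tex15 went from 1568 through 2638 to 224 (6.98-fold lower) and Atm, the kinase that limits break number, from 447 through 668 to 91.3 (4.89-fold). The other design gave Atm a fall of 2.38 with a different probe set. Dmc1, the meiotic recombinase, was at 213, 668 and 87.5, lower by 1.29, and Rec114 (-1.24), Mei1 (-1.37) and Brca1 (2.83-fold) were lower as well. The X-linked Tex11 was at least 3.10-fold lower.

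In the list for chromosome segregation in meiosis I, 11 of 60 measured members rose and 5 fell (median 0.81). Beyond the limit 36 were higher and 15 lower. Of all measured genes 10.0% rose, 12.1% fell, 29.8% were higher and 42.6% lower. The number that fell was thus below the share of all genes. Eid3, a subunit of the SMC5-SMC6 complex, had the steepest rise, from below the floor through 71.2 to 9153 (at least 195-fold), and Smc5 rose by 2.19. Ccna1, the meiotic cyclin A, went from 32.9 in spermatogonia to 2062 (at least 23.6-fold) and Aurkc, the germ cell Aurora kinase, from below the floor through 123 to 1729 (at least 19.8-fold). Aurka went from 313 through 491 to 4622 (14.8-fold), and Ccnb2 rose by 2.38, Plk1 by 2.13 and Ttk by 2.17, although another Ttk probe set on the second design gave -0.29. Meikin, which holds sister kinetochores together in meiosis I, went from 53.9 through 145 to 531 (9.86-fold), and the activator of the anaphase-promoting complex Fzr1 rose by 2.68. Nipbl, the cohesin loader, rose by 2.17. Securin (Pttg1) was higher by 1.92 and the checkpoint kinase gene Bub1b by 1.86. The condensin genes differed among themselves: Ncapg was higher by 1.98, Smc4 3.88-fold and Ncapd2 by 1.40 (-0.32 on the second design), Smc2 (-0.37) and Ncaph (-0.40) lay within the limit, and Ncaph2 was lower by 0.78. The 5 that fell were Pds5b (6.30-fold), the general cohesin genes Stag2 (5.44-fold), Rad21 (4.75-fold) and Smc1a (4.23-fold), and Cenpa, the centromeric histone (4.06-fold, but -0.14 on the log2 scale on the second design). These counts moved with the scaling: median scaling gave 18 that rose and 2 that fell, the shared probe sets 19 and 2, and quantile normalization left 1 that fell. On the second design alone the median of 24 members was -0.08. Ccnb3 and Fbxo43 were at the floor in both fractions.

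DNA replication genes had a median of -0.48, against -0.22 over all measured genes, with 1 of 41 measured members rising and 2 falling. Both numbers were below the shares of all measured genes, 10.0% and 12.1%. Cdt1, the licensing factor, went from 1195 through 1608 to 263 (4.54-fold lower) and Orc6 from 670 through 1109 to 160 (4.18-fold). The helicase subunits were split: Mcm3 (-1.81), Mcm4 (-1.77) and Mcm5 (-1.58) were lower, while Mcm7 was higher by 0.82. Rfc2, a clamp loader subunit, rose by 2.02, and Gins1 (1.77), Gmnn, the inhibitor of CDT1 (1.67), and Rpa1, the large subunit of the single-strand binding protein (1.65), were higher. Its partners Rpa2 (2.83-fold) and Rpa3 (2.46-fold) were lower. In all, 21 members were lower and 14 higher beyond the limit, as were 42.6% and 29.8% of all measured genes.

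Among piRNA pathway genes, 21 of 24 measured members were higher beyond the limit, and the median was 1.73. Against 10.0% and 12.1% of all measured genes, 0 of these fell and 10 rose. Besides Piwil1, the genes that rose were the germ granule helicase Ddx25 (345 through 601 to 6621, 19.2-fold), the Tudor domain genes Tdrd7 (13.0-fold), Tdrd12 (8.06-fold), Tdrd5 (7.15-fold) and Tdrd9 (4.21-fold), and Pld6, the mitochondrial nuclease of primary piRNA processing (12.1-fold). Exd1 (2.41), Mael (2.26) and Gtsf1 (2.24) completed the 10. Piwil2, active already in spermatogonia, was higher by 1.58. Dazl, which controls translation in young germ cells, was at 1597, 3514 and 787 and lower by 1.02, Pnldc1 lay within the limit (-0.28), and Piwil4 was at the floor in both fractions.

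Spermatogonial markers fell in part. Of 31 measured members 8 fell and 2 rose, with a median of -1.05, and 21 were lower beyond the limit. Over all measured genes the shares were 12.1%, 10.0% and 42.6%. Besides Itga6 and Ccnd2, the falls were those of Etv5, a factor of stem cell renewal (391 through 259 to 53.6, 7.29-fold, but 0.03 and 0.10 on the log2 scale with quantile normalization and median scaling), Elavl2 (at least 6.33-fold), Rhox13 (5.83-fold), Stra8, the retinoic acid target at entry into meiosis (2081 through 3295 to 376, 5.53-fold), Dmrt1 (5.51-fold) and Dnmt3b (5.50-fold). Only Itga6, Ccnd2 and Etv5 among these 8 stood lower in leptotene/zygotene than in spermatogonia. Kit (-1.83), Sohlh1 (-1.86) and Sall4 (-1.94) were lower without reaching 4-fold. Neurog3 and Pou5f1 were within 10 units of the floor of 87.3 in spermatogonia and below it in pachytene, so no difference could be detected. Zbtb16, the PLZF factor of undifferentiated spermatogonia, was as dim on the first design, but its probe set on the second fell by 2.56. The 2 that rose were Dmrtb1, a regulator of meiotic entry (218 through 661 to 4425, 20.3-fold), and Id4, also a marker of undifferentiated spermatogonia (362 through 795 to 1989, 5.50-fold). Tspan8 (0.47) and Rarg (0.50) were slightly higher.

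X-linked genes were lower than the genes of any autosome by their median. Of 443 measured X-linked genes 183 fell at least 4-fold (41.3%) and 1 rose, with a median of -1.75. On the autosomes 1467 of 13165 genes fell (11.1%) and 1363 rose (10.4%), with a median of -0.19. Among the 19 autosomes the lowest median was -0.33 and the highest -0.04, and the share that fell from 8.41% to 14%. The difference was also seen with every probe set counted: 43.2% of 414 X-linked probe sets on the first design and 29.3% of 287 on the second fell, against 11.0% of 13400 and 8.83% of 8876 autosomal ones. The median of the X in leptotene/zygotene was -0.10 against spermatogonia, so most of the difference lay in the step to pachytene, which shares the pachytene arrays with this comparison. The 1 gene that rose was Tsga8, a spermatid nuclear protein, from below the floor in spermatogonia and leptotene/zygotene to 956 (at least 10.9-fold). Its probe set can match more than 1 transcript and was absent when plain probe sets alone were used.

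**Figure D2:**
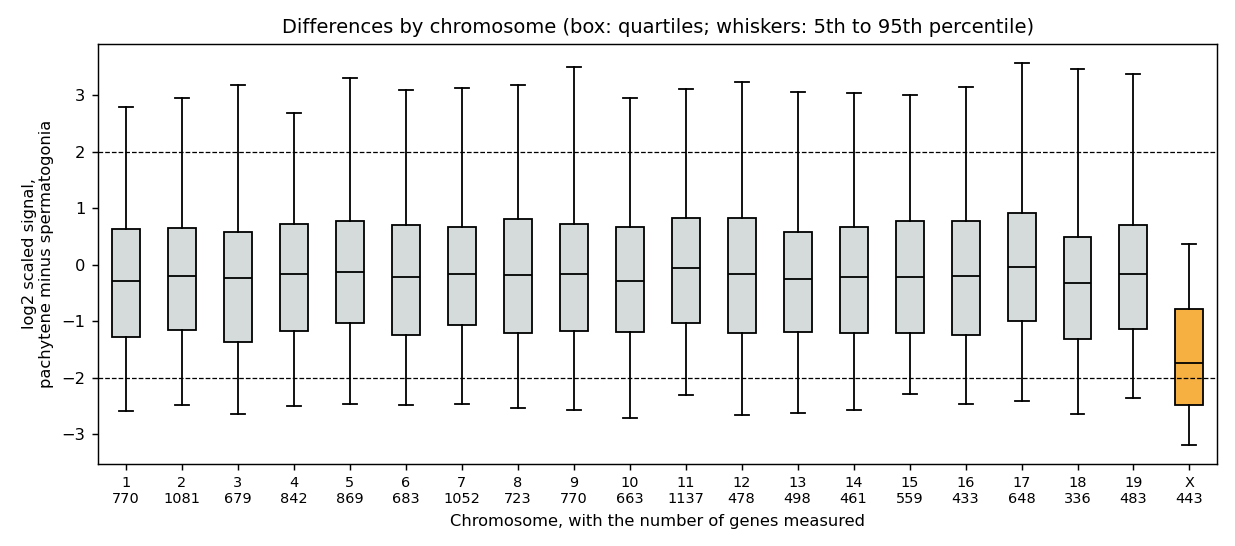
Difference of log2 scaled signal, pachytene minus spermatogonia, for the measured genes of each chromosome (number under its name); boxes span the quartiles with the median, whiskers the 5th to 95th percentile, dashed lines 4-fold. The X chromosome (orange) has a median of -1.75, while the autosomal medians lie between -0.33 and -0.04.

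The fall was broad among X-linked genes of many functions: 39 of 64 measured members fell, 58 were lower beyond the limit and 0 rose, with a median of -2.22. Bex1 went from 2877 through 2508 to 240 (12.0-fold), Pqbp1, a splicing factor, from 1504 through 1250 to 132 (11.4-fold) and Maged1 from 4222 through 3845 to 430 (9.82-fold). Ube2a, a ubiquitin-conjugating enzyme, fell 9.39-fold, Pgk1 8.72-fold, the deubiquitinase Usp9x at least 8.66-fold, Igbp1 7.91-fold and Ssr4 7.81-fold. A few members were unlike the rest. Mtm1 was higher by 1.00 and Rpl39 by 0.48, and Ndufa1, a complex I subunit, was at 6456, 7732 and 5067. Kdm5c (0.23) and Prps2 (-0.06) lay within the limit on the first design, whereas other probe sets on the second gave -3.02 and -1.84. Gla and Atrx were at the floor in both fractions. X-linked genes of germ cells had a median of -1.38 over 17 measured members, of which 3 fell, Rhox13, 4930550L24Rik and Taf7l, and 0 rose. Several of them peaked between the fractions compared, among them Nxf3 (562, 1832 and 215), Tsx (133, 1195 and 270) and Tex13b (487, 1210 and 135). The 2 Y-linked genes that fell were Uba1y (1195 through 1480 to 172, 6.95-fold) and Eif2s3y (451 through 437 to below the floor, at least 5.16-fold), of 5 measured.

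Many housekeeping proteins have a second copy used by germ cells, often an intronless autosomal copy of an X-linked gene. Of 44 pairs listed, 34 were measured on both sides. The germ cell copy rose in 26 of the 34 and fell in 0, and the general copy fell in 14 and rose in 3. In 8 pairs the germ cell copy rose while the general copy fell. The shares of all measured genes were 10.0% that rose and 12.1% that fell. Outside the 34, the germ cell copy Taf7l fell 5.69-fold, while its partner Taf7 was at the floor in both fractions. The germ cell copies Calr3, Aldoart1, Hmgb4 and Hspa1l were at the floor in both fractions and are not among the 34. For 12 pairs the general copy is X-linked: 8 germ cell copies rose, 8 general copies fell, and 4 pairs did both. Pgk2 went from a background signal of 3.02 to 2548 (at least 29.2-fold) while Pgk1 fell from 4560 to 523. Fam50b rose at least 52.5-fold beside a 5.55-fold fall of Fam50a, and Cetn1, a centrin, rose 25.8-fold beside a 7.35-fold fall of Cetn2. Prps1l1 rose at least 175-fold, with Prps1 lower by 1.69, and Pdha2 at least 54.5-fold, with Pdha1 lower by 1.93. In other X-linked pairs the germ cell copy did not reach 4-fold: Cstf2t (1.00) and Utp14b (0.94) were higher while Cstf2 and Utp14a fell (with -0.75 for Cstf2 on the second design), and Slc25a31 was at 641 and 954 while Slc25a5 fell from 5100 to 1098. Rpl39l rose by 2.02 with Rpl39 higher by 0.48.

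Pairs with an autosomal general copy varied. Pgam2 rose at least 140-fold while Pgam1 fell 4.86-fold, Cox8c rose 38.9-fold (0.80 on the log2 scale by its probe set on the second design) while Cox8a fell 4.46-fold, Cyct, the testis cytochrome c, rose 17.3-fold while Cycs fell 4.25-fold, and Psma8, the proteasome subunit of spermatocytes, rose 28.2-fold while Psma7 fell 5.21-fold. In other pairs the general copy was within the error limit, as for the calnexin gene Canx (-0.20) beside Clgn, Gtf2a1 (-0.23) beside Gtf2a1l, and Brd2 (0.21) beside Brdt. In 3 pairs the general copy rose too: Ldha (2606 to 11126, 4.27-fold) beside Ldhc, Ppp3ca (4.30-fold) beside Ppp3cc (11.0-fold, but -0.10 on the log2 scale with plain probe sets), and Tbp beside Tbpl1. Among the 34 measured pairs the germ cell copies that were lower were Nxf3, Taf4b (-1.05) and Rec8. Pabpc6 and Ppp3r2, a poly(A)-binding protein and a calcineurin regulatory subunit, rose at least 123-fold and 157-fold.

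**Figure D3:**
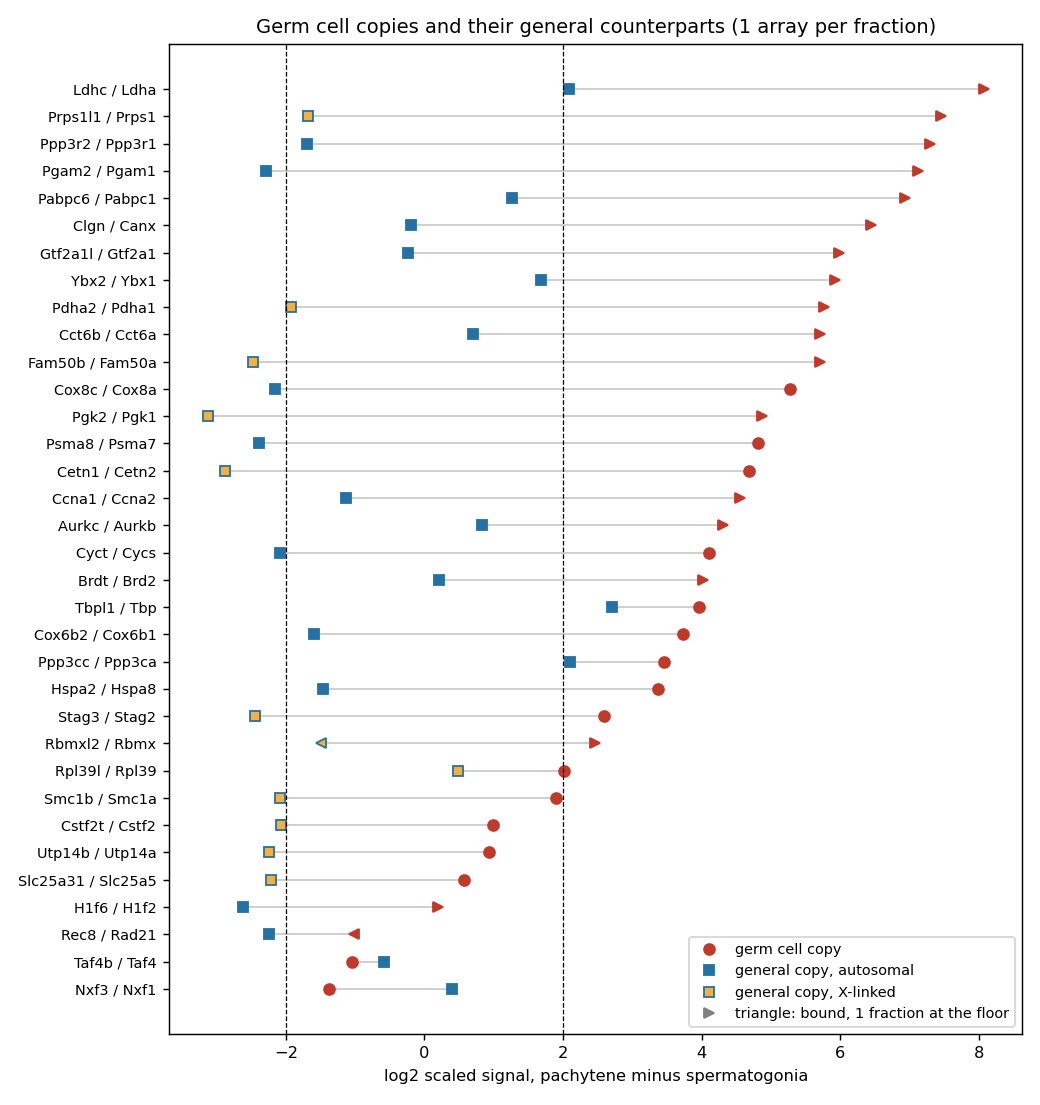
Difference of log2 scaled signal, pachytene minus spermatogonia, for the 34 measured pairs: red marks the germ cell copy, squares the general copy (orange when X-linked), triangles bounds where 1 fraction was at the floor, dashed lines 4-fold. The germ cell copy lies right of 2 in 26 pairs and the general copy left of -2 in 14.

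Genes of glycolysis and lactate handling changed in both directions: 12 of 36 measured members rose and 9 fell (median 0.50, and -0.39 over 5 members on the second design alone). The shares of all measured genes were 10.0% and 12.1%. Among the sugar and lactate carriers, Slc2a3, the high-affinity glucose transporter, went from 797 through 1588 to 13794 (17.3-fold) and Slc2a5, the fructose transporter, from 101 through 97.9 to 4730 (46.9-fold), while Slc2a1 fell at least 9.71-fold. Slc16a7, a monocarboxylate transporter, rose at least 8.04-fold, and Slc16a1 fell 7.74-fold. Among the enzymes, the platelet phosphofructokinase Pfkp rose 16.2-fold and the liver form Pfkl fell 5.55-fold (-0.85 on the log2 scale on the second design), and hexokinase 2 (Hk2) fell 5.26-fold with Hk1 higher by 1.69. Pyruvate kinase (Pkm) fell 5.53-fold and Ldhb 4.69-fold. Gapdhs, the sperm glyceraldehyde phosphate dehydrogenase, was at 94.8 and 132, near the floor.

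Few respiratory chain subunits changed at least 4-fold. Of 74 measured members 4 rose and 4 fell, and the median was 0.30. Beyond the error limit 27 were higher and 12 lower, and 35 lay within it. Of all measured genes 10.0% rose, 12.1% fell, 29.8% were higher and 42.6% lower. The 4 that rose were the testis forms Cox8c, Cyct, Cox7b2 (561 through 2148 to 7828, log2 3.80) and Cox6b2 (846 through 1310 to 11233, 13.3-fold). The 4 that fell were Ndufb11, which is X-linked (6.76-fold), Ndufa4 (5.86-fold), Cox8a and Cycs. On the second design alone 5 members had a median of -0.57.

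Genes of protein synthesis and folding were mixed. Cytosolic ribosomal proteins had a median of -0.36 over 44 measured members, with 21 within the limit, Rpl39l rising and Rps4x (X-linked, 4.55-fold), Rpl12, Rps6 and Rpl14 falling. That median changed sign to 0.04 under median scaling and 0.01 under scaling by the shared probe sets, where 0 members fell. Nucleolar factors had a median of -0.57, against -0.22 over all measured genes, with 8 of 73 falling and 39 lower beyond the limit. Of all measured genes 12.1% fell and 42.6% were lower, so the number that fell was near the share of all genes. Nop56, Ncl, the nucleolin gene (4237 through 4639 to 827, 5.12-fold), Dkc1, the X-linked dyskerin (5.99-fold), and Ubtf, the upstream factor of RNA polymerase I (4.33-fold), were among those that fell, and Wdr12 rose 9.54-fold. With the shared probe sets 2 nucleolar genes fell in place of 8.

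Heat shock proteins and cochaperones included 9 of 57 that rose and 5 that fell (median 0.53, and -0.28 over 14 members on the second design alone). The shares of all measured genes were 10.0% and 12.1%, so the number that fell was below that share. Hspb9, a small heat shock protein of the testis, went from 2.96 in spermatogonia and 1.98 in leptotene/zygotene, both below the floor, to 11173 (at least 238-fold). Cct6b, the testis form of a chaperonin subunit, rose at least 52.5-fold, Dnajb3 43.6-fold, Dnajb13, a radial spoke cochaperone, by at least 4.32 on the log2 scale and Hspa4l 17.5-fold (1.13 on the log2 scale on the second design). Those that fell were the mitochondrial chaperonins Hspe1 (4861 to 676, 7.19-fold) and Hspd1 (3947 to 695, 5.68-fold) and the stress-induced Hspa1b (6.51-fold), Hspb8 (at least 4.96-fold) and Hspb1 (4.51-fold). Core and variant histones had 10 measured members, with a median of -0.03 that changed sign with all 4 other scalings. The linker histone H1f2 fell 6.15-fold, with 0.42 on the log2 scale when plain probe sets alone were used, and H1f10 was higher by 1.32.

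**Figure D4:**
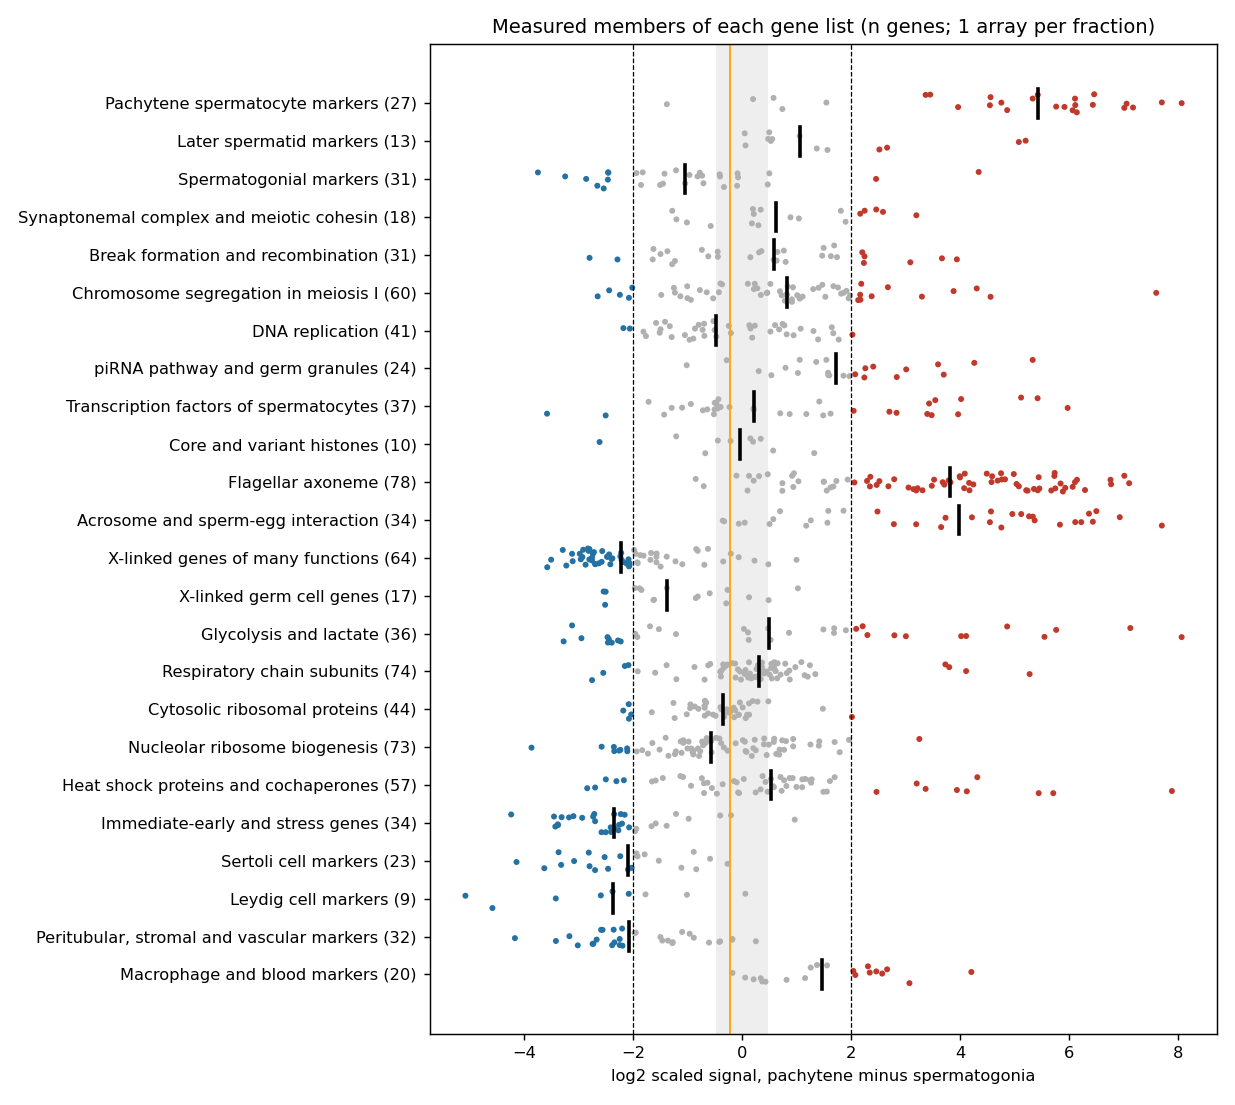
Difference of log2 scaled signal, pachytene minus spermatogonia, for the measured members of each gene list (number in brackets); red and blue points are at least 4-fold higher and lower, black bars list medians, the grey band the error limit of 0.461, the orange line the median of all measured genes (-0.22). The axoneme, acrosome and pachytene marker lists lie mostly right of 2 and the X-linked, somatic and immediate-early lists mostly left of 0.

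Markers of the somatic cells of the testis moved with the falls described above. On the first design the summed signal of 22 Sertoli markers was 82885 in spermatogonia, 72880 in leptotene/zygotene and 21710 in pachytene. That of 9 Leydig markers was 17075, 10682 and 6731, and that of 32 peritubular, stromal and vascular markers 102762, 50526 and 26799. Of the measured members 13 of 23 Sertoli, 6 of 9 Leydig and 16 of 32 stromal markers fell and 0 rose, with medians of -2.10, -2.38 and -2.09. None of these lists was at the floor throughout in pachytene: 3, 3 and 7 of those on the first design were. Clu, a Sertoli cell product, was still at 3831 in pachytene after 14728 in spermatogonia, and Col1a1, a stromal collagen, at 1657 after 1393, while the Leydig genes Cyp11a1 and Hsd17b3 and the Sertoli gene Amh were below the floor. Cyp11a1 had a difference of -0.20 by its probe set on the second design. Kitl, the ligand of KIT, fell 12.4-fold, Wt1 10.4-fold, Sox9 by 3.09 on the log2 scale, Pdgfra 10.7-fold and Tagln 8.11-fold. The part of these cells in each gene that fell was not tested. In the somatic mixture, which holds no testis, 93 of the 1655 genes that fell were at the floor (5.62%), compared with 502 of the 1376 that rose (36.5%) and 13.2% of all measured genes.

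Macrophage and blood markers moved the other way. Of 20 measured members 9 rose and 0 fell, with a median of 1.47 and a summed signal of 2436, 4883 and 10609. In spermatogonia 7 of the 20 were at the floor and could not fall. The shares of all measured genes were 10.0% that rose and 12.1% that fell. Fcgr3, an Fc receptor, went from below the floor through 121 to 1614 (at least 18.5-fold), Csf1r, the receptor of macrophage growth factor, from 264 through 546 to 1308 (4.96-fold) and the complement genes C1qa, C1qb and C1qc rose at least 5.08-fold, 5.94-fold and 5.51-fold. The lysozyme genes Lyz1 (8.41-fold) and Lyz2 (6.33-fold) rose as well, and their near-identical sequences may share probes. Itgam and the globin genes Hba-a1 and Hba-a2 were at the floor in both fractions, and H2-Aa lay within the limit (-0.18). Only 4 members rose with the floor at the 60th percentile. The part of macrophage RNA in the genes that rose was not tested.

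Immediate-early and stress genes, which respond within minutes to the handling of cells, were lower in pachytene: 24 of 34 fell and 0 rose, with a median of -2.35. Gadd45g led, followed by Ccn1 (11.0-fold), Ier3 (10.8-fold), Klf6 (10.5-fold), Egr3 (10.4-fold), Btg2 (9.97-fold), Egr2 (9.07-fold) and Ier2 (8.58-fold). Fos itself was at 11645, 9032 and 5015. Ddit3, a gene of the unfolded protein response, had a log2 difference of 0.96 on the first design and -0.59 on the second. The summed signal of 33 of these genes on the first design was 105280 in spermatogonia, 72497 in leptotene/zygotene and 24292 in pachytene, against 9815 in whole testis, which was not dissociated into fractions. The RNA controls differed too. On the first design the ratio of the 3′ to the 5′ probe set was 1.11 in spermatogonia and 1.49 in pachytene for Gapdh and 3.33 and 2.41 for Actb, and the 3′ signal of 18S ribosomal RNA was 2174 and 427. Their part in the differences was not tested, and age, gradient fraction and stage cannot be told apart, since each fraction was taken at 1 age.

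Most of the distance between the fractions was covered after leptotene/zygotene. Of the 1376 genes that rose, 1337 had a leptotene/zygotene signal nearer to spermatogonia on the log2 scale (97.2%), 811 lay within the error limit of spermatogonia (58.9%) and 1114 differed at least 4-fold between leptotene/zygotene and pachytene (81.0%). Of the 1655 that fell, 1481 were nearer to spermatogonia (89.5%), and 979 differed at least 4-fold in the second step (59.2%). Already 33 of the genes that rose were at least 4-fold above spermatogonia in leptotene/zygotene, among them Ldhc, Fabp9 and Spata4, and 34 of those that fell were 4-fold below, among them Tagln and Cdh11. These steps share arrays with the comparison and are not independent of it.

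The comparison could be tested only on the 100 probe sets that both designs carry, with limma on all 10 arrays and the design as a block. Of these, 28 were higher and 53 lower in pachytene at an adjusted p under 0.05. The labels do not say if samples 1 and 2 of a group are separate cell preparations, so the test measures the spread between these arrays, which may be technical. The largest rise was that of Dhrs1, a dehydrogenase of the endoplasmic reticulum, at 153 and 135 in spermatogonia and 1031 and 889 in pachytene (log2 2.74 ± 0.175 SE, adjusted p = 2e-41 by limma). It was followed by Gbf1, a Golgi exchange factor (1.66, with 1.11 from its other probe set), Gps1, a COP9 signalosome subunit (1.52), Nmt1, an N-myristoyltransferase (1.51), and Abhd17a, a depalmitoylase (1.46). The largest fall was that of Huwe1, an X-linked ubiquitin ligase, at 1380 and 1547 in spermatogonia and 223 and 240 in pachytene (-2.66 ± 0.175 SE, adjusted p = 6.89e-40 by limma). Sar1a, a GTPase of vesicle coats (-2.55), the small GTPase gene Cdc42 (-2.44), Ssr3 (-2.33) and Sap30l (-2.31) came next. The SE is the same for all of them because limma pooled the spread to 1 value. The 2 arrays of a fraction did not overlap with those of the other in any of these 10. That follows from their choice by size of difference on the same arrays and adds no support. Fewer passed with the values as deposited (16 higher and 35 lower) and with quantile normalization (14 and 45).

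**Figure D5:**
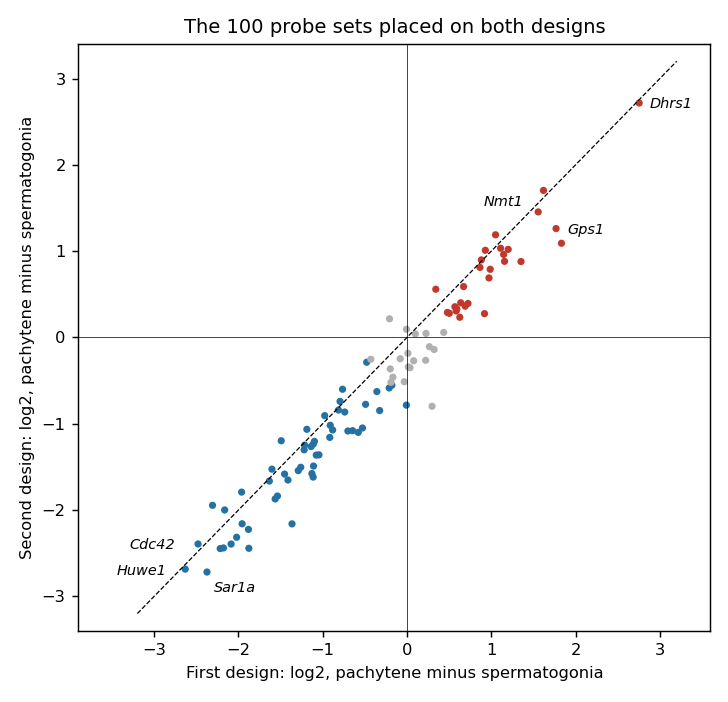
Difference of log2 scaled signal, pachytene minus spermatogonia, of the 100 shared probe sets on the first design (horizontal) and the second (vertical); red and blue points passed limma as higher and lower at an adjusted p under 0.05, and the dashed line marks equal values. The differences of the designs correlated with r = 0.975 across probe sets, which are not independent replicates, and their medians were -0.34 and -0.62.

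Genes read by different probe sets on both designs repeated less closely than the shared probe sets. Over 2003 such genes the differences correlated with r = 0.50, as a description. Of 244 genes that fell on the first design 220 were also lower on the second (90.2%) and 73 fell there too. Of 173 that rose on the first design 115 were also higher on the second (66.5%), 42 rose there too and 3 fell. Taken the other way, 72 of 80 genes that rose on the second design were higher on the first, 42 of them past 4-fold. Of the genes named in the text 35 were read on both designs; 23 of these were called on the first, 21 had the same sign on the second, and 8 were called again, so 15 were not. Among the 15 were Nipbl (1.62 on the second design) and Rfc2 (1.78), close to 4-fold. Mcm5 (-2.13) was called on the second design alone, and Gins1 was at 0.23 there.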

How the data were processed

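Total RNA was amplified to biotinylated cRNA, per the labels' protocols, and hybridised to 2 array designs. The deposited values are intensity signals per probe set made by the authors with GCOS 1, per the submitters' processing notes; no further step is given in the sources used here, and the scale was checked on the values. Within each design the 5 arrays were scaled to a common 2% trimmed mean. The floor was the 90th percentile of chemosensory receptor probe sets where at least 20 exist (71 on the first design), otherwise the median (the second design has 14). A gene was read by its brightest probe set that names 1 gene, from the first design where it was above the floor there and otherwise from the second. The median difference and calls use log2 of these signals. With 1 array per group and design, single genes have no test.

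The shared probe sets were tested with limma 3.58.1 in R 4.3.3, with the replicate number, which is the array design, as a block; the script was checked on simulated data. The deviations of same-numbered samples correlated with r between -0.02 and 0.57, and 0.28 for the fractions compared, and whether same-numbered samples share more than the design is not known. Genes named in the text are the 10 with the largest difference in each direction, the 6 brightest against the floor, up to 8 members of each list with the largest differences, members that go against a list or lie at the floor, the copy pairs, and up to 5 shared probe sets in each direction; some further list members were named after their values were seen. Predicted and unnamed genes (244 called) and genes whose probe sets disagree (31 called) were left out of the largest and brightest genes. This did not apply to list members, such as 4930432K21Rik and 4930550L24Rik. The members and lists were chosen with earlier results of these data known.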

Additional observations from a re-analysis of the deposited data

How the results depend on the processing

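The alternatives were other scalings, floors and ways to read a gene, and each array design alone. Genes that rose numbered 704 to 757 with 1 design alone. Genes that fell numbered 1093 with median scaling, 994 with scaling to the shared probe sets, 964 with log2 of signal plus floor, 1064 with the mean over probe sets, and 696 to 1227 with 1 design alone. The X median was -1.46 with quantile normalization, -1.47 with median scaling, -1.39 with the shared probe sets, -1.41 with signal plus floor, -1.30 with the mean over probe sets and -1.95 to -1.47 with 1 design alone, where 70 to 132 X-linked genes fell; 0 rose with plain probe sets and on the second design. The autosomal median turned to 0.13 (median scaling) and 0.20 (shared probe sets). The error was 0.518 with quantile normalization and 0.361 as deposited. With 1 design alone, medians ran from -0.08 to 0.75 for segregation, -0.39 to 0.50 for glycolysis, -0.28 to 0.53 for heat shock and -0.22 to 1.47 for macrophage markers, the low end resting on 24, 5, 14 and 1 members, and log2 differences from -1.10 to 5.84 for Crem, -0.59 to 0.97 for Ddit3, -4.19 to 0.30 for Tnnt2, -0.29 to 2.17 for Ttk and -0.32 to 1.40 for Ncapd2. Sign also changed for Etv5 (0.03 quantile, 0.10 median), Iqca (0.05, mean over probe sets) and, with plain probe sets, H1f2 (0.42), Ppp3cc (-0.10) and Tnnt2 (0.30). Of genes that rose on the first design, 74.5% (quantile), 73.7% (median), 81.3% (deposited), 82.6% (shared) and 57.6% (plain probe sets) were higher on the second; 68 (shared) and 16 (plain) rose on both. Of those that fell, 84.1%, 84.7%, 76.7% and 79.0% under the 4 scalings and 93.7% with signal plus floor were lower there, and 44 (quantile), 40 (median), 28 (shared), 35 (60th percentile floor), 27 (signal plus floor), 32 (mean) and 38 (plain) fell on both. Of 326 named genes, 89 were under 4-fold with at least 1 alternative after passing it. The RFX share was 2.16% to 3.80% with 1 design alone. In the limma test with no replicate block, 27 shared probe sets were higher and 52 lower, so the block changed few calls. Quantile normalization left 14 higher, deposited values 16 higher and 35 lower, and leaving out 1 array 18 to 27 higher. The causes were not tested.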
